A study of Mus musculus with 11 samples.

Results

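The second day of culture was followed in cells given a control DNA oligonucleotide. They were NIH-3T3 cells, fibroblasts that were grown as a line from mouse embryos. The comparison set 3 libraries taken at 48 h against 3 taken at 24 h, 6 of the 11 libraries of the series, and was chosen by treatment and time point alone. Cells of both time points were wild type, grew in DMEM with fetal bovine serum, and had received the control oligonucleotide at 10 µM. The other 5 libraries came from the same line with 10 µM AS1411, a guanine-rich aptamer that binds the nucleolar protein nucleolin, with 2 libraries at 48 h and 3 at 24 h. They entered the model fit and one comparison of the time changes. Both oligonucleotides had 26 nt. The control held 17 cytosines and 9 thymines, and AS1411 held 17 guanines and 9 thymines. Both are shown 5′ to 3′ because they are what the groups received, with cytosines and guanines in capitals.

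control oligonucleotide: CCtCCtCCtCCttCtCCtCCtCCtCC
AS1411: GGtGGtGGtGGttGtGGtGGtGGtGG

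All groups derive from 1 cell line, and every library used here came from cells given an oligonucleotide, so the change over time includes whatever the control oligonucleotide does by itself. The sources used here do not give cell density, passage or medium changes between 24 h and 48 h. Whether replicates came from separate cultures is not stated either, so every p-value rests on the spread among the libraries, part of which may be technical. In bulk RNA a change of RNA per cell and a change in the share of cells in a given state cannot be told apart.

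As background, fibroblasts are connective tissue cells that multiply while serum growth factors drive the ERK kinase cascade, and a large part of their growth programme is switched on by serum within minutes to hours. Immediate-early genes encode the first transcription factors of that response. Spreading on plastic and stretching of the actin skeleton act through the cofactors YAP and MRTF, which work with the DNA-binding proteins TEAD and SRF. As dishes fill and nutrients are used, cells in culture are known to slow their growth. The transcription factor SREBP switches on lipid synthesis genes when sterols run low.

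Total counts were 14637744, 17061026 and 18069867 at 48 h, against 17406806, 15563563 and 14202465 at 24 h. Of 13 fibroblast markers listed, 9 were tested, and their summed level was 8772 to 9982 CPM at 48 h, against 8297 to 8857 CPM at 24 h. CPM are a gene's counts scaled by its library's total, after TMM scaling had adjusted that total. Few defining markers of other cell types were measured. Of 10 epithelial markers 1 was tested (Krt19, 128 to 151 CPM at 48 h, against 165 to 178 CPM at 24 h), of 8 endothelial markers 2 (summed 7.16 to 10.2 CPM at 48 h, against 9.56 to 11.3 CPM at 24 h), of 10 blood cell markers 1 (Cd68, 3.73 to 4.07 CPM at 48 h, against 4.90 to 6.98 CPM at 24 h), of 10 neuronal and glial markers 4 (summed 55.9 to 68.7 CPM at 48 h, against 63.6 to 71.2 CPM at 24 h) and of 8 muscle markers 2 (summed 1.47 to 1.84 CPM at 48 h, against 3.67 to 4.03 CPM at 24 h).

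The libraries were far from equal in spread. The 48 h libraries differed from each other by chi-square values per gene of 4.58 to 11.7, against 1.51 to 2.52 among the 24 h libraries. The first principal component, with 44.8% of the variance, separated the times. The second, with 20.3%, set 48 h replicate 2 apart at 25.6, with 48 h replicates 1 and 3 at -7.26 and -15.0. Within 48 h, replicate 2 was the highest of the 3 libraries in 4788 of the 13040 genes and the lowest in 5184. Its share of mitochondrial counts was 1.22%, against 0.973% and 0.863% in the other 48 h libraries and 0.713% to 0.897% at 24 h. The part of these differences between libraries in the results was not tested. Several results below are given with and without it.

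**Figure D1:**
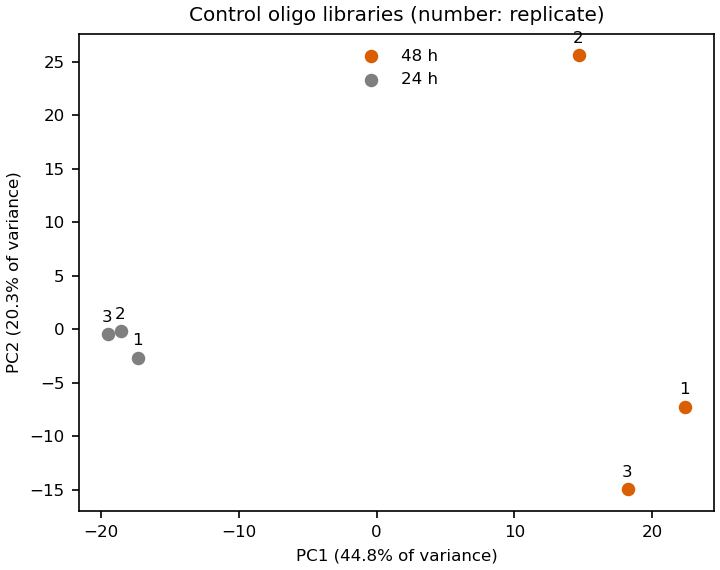
First (horizontal axis, 44.8% of variance) and second (vertical axis, 20.3%) principal components of log2 CPM in the 6 control oligonucleotide libraries, each point 1 library numbered by replicate. The 48 h libraries lie right of all 24 h libraries, and 48 h replicate 2 lies at 25.6 on the vertical axis, away from the others.

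Gene expression changed broadly but mostly by small amounts between 24 h and 48 h. Of 13040 genes tested, 3236 (24.8%) passed the threshold of an adjusted p under 0.05 by edgeR's quasi-likelihood test, of which 1513 (11.6%) were higher and 1723 (13.2%) were lower at 48 h. The median absolute log2 fold change of these genes was 0.28. At least 2-fold differences were seen for 105 higher genes (0.805%) and 99 lower genes (0.759%). The 48 h and 24 h libraries did not overlap in 1423 of the 1513 higher genes and 1678 of the 1723 lower genes. Such separation, stated for single genes below, was thus shared by most called genes. The median log2 fold change over all tested genes was -0.0043. The scaling bears on the split of directions, which was 1928 higher and 1349 lower when libraries were scaled by their totals alone, with the median of all genes at 0.028. Leaving out 48 h replicate 2 gave 1931 higher and 2030 lower genes. Without any 1 of the 24 h libraries the counts were lower, with 1092 to 1173 higher and 1125 to 1147 lower.

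**Figure D2:**
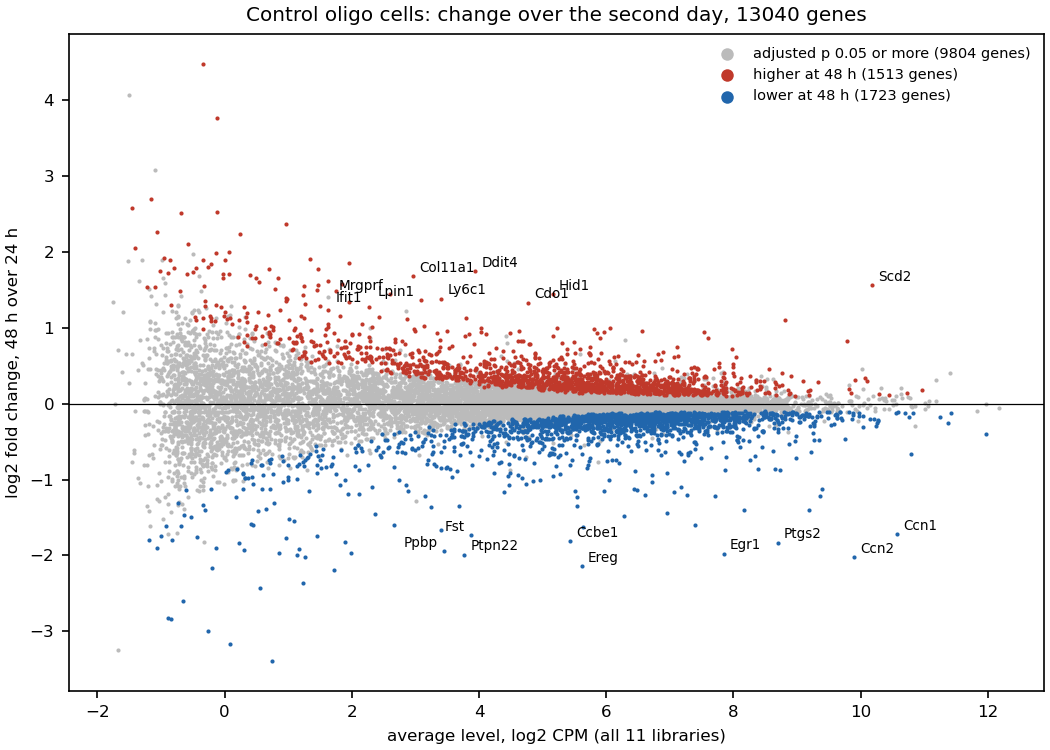
Log2 fold change, 48 h over 24 h, in control oligonucleotide cells (vertical axis) against the average level in log2 CPM over all 11 libraries (horizontal axis), 1 point per tested gene. Red points are the 1513 higher genes, blue points the 1723 lower genes, and the genes with the largest changes at an average log2 CPM of at least 2 are named, with Ereg at -2.14 and Ddit4 at 1.75.

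Gene lists are described below by how many tested members passed that threshold in each direction, to be read against 11.6% higher and 13.2% lower among all genes, and by the median log2 fold change of their tested members. Those shares are of the fit with all libraries. List counts for a fit that left out 1 library are to be read against all genes in that fit. Without 48 h replicate 2, 1931 of 12990 tested genes were higher and 2030 lower. Without any 1 of the 24 h libraries, 1092 to 1173 were higher and 1125 to 1147 lower. Without 48 h replicate 1 these counts were 1308 and 1387, and without 48 h replicate 3 they were 1445 and 1500. Of 1223 list entries, 1091 were matched to a gene in the table, and members that failed the filter on low counts are left out of each count. Some lists share members, such as Ccn2 in the YAP/TEAD and TGF-beta lists and Ddit4 in the hypoxia and integrated stress response lists. Counts of such lists are not separate from each other. Where a list below has no member called in one direction by edgeR, its count in that direction at an unadjusted p under 0.05 was also 0, with 1 exception (1 higher member among the NF-kB genes). DESeq2 likewise called no such member, and limma-voom called 2 lower glycolysis genes. Leaving out 1 control library added such calls in 6 lists: 1 higher mitochondrially encoded mRNA (without 48 h replicate 3), 1 higher immediate-early gene (without 48 h replicate 3), 1 lower fatty acid gene (48 h replicate 2 or 3), 2 lower glycolysis genes (48 h replicate 2), 1 higher NF-kB gene (48 h replicate 1 or 2) and 1 lower interferon-stimulated gene (48 h replicate 3). Counts of 1 to 3 members in a direction are given for completeness, and many of them moved by 1 or 2 when a library was left out.

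The serum-response programme was lower at 48 h across its transcription factors, its feedback inhibitors and several secreted growth factors. Of 27 immediate-early transcription factor genes, 21 fell, at a median of -0.71, and of 22 ERK feedback and ERK-dependent genes, 14 fell, at a median of -0.48. Myc (chromosome 15, 61985391 to 61990374 on GRCm38), a transcription factor that drives growth and ribosome production, had 137, 144 and 152 CPM at 48 h, against 391, 383 and 373 CPM at 24 h. The groups lay far apart, with a log2 fold change of -1.40 ± 0.047 (SE) and an edgeR adjusted p of 1.62e-13. Egr1, an early zinc finger factor, had 59.1, 60.1 and 112 CPM at 48 h, against 347, 301 and 266 CPM at 24 h (-1.98 ± 0.26, adjusted p = 0.00132). The AP-1 subunit Jun had 106, 111 and 126 CPM at 48 h, against 277, 254 and 265 CPM at 24 h (-1.21 ± 0.058, adjusted p = 2.89e-10). In both genes every 48 h library was below every 24 h library, and 48 h replicate 3 was the highest at its time. Fos, the AP-1 partner of Jun, had only 2.49, 1.84 and 5.53 CPM at 48 h, against 10.1, 8.93 and 6.82 CPM at 24 h (-1.37 ± 0.36, adjusted p = 0.0252). That call was lost without 48 h replicate 1 or 2 or 24 h replicate 1 or 2, at log2 fold changes of -1.21, -1.06, -1.22 and -1.34. Klf6 (-0.86 ± 0.053), Ier5 (-0.71 ± 0.055) and Maff (-0.55 ± 0.068), 3 further early transcription regulators, fell by less. Ier3, an early survival gene, had 54.1, 65.9 and 68.0 CPM at 48 h, against 146, 143 and 134 CPM at 24 h (-1.17 ± 0.07, adjusted p = 3.31e-08).

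Genes that ERK induces to restrain itself went the same way. Spry2, a sprouty inhibitor of receptor signalling, had 24.0, 27.7 and 31.1 CPM at 48 h, against 65.0, 64.0 and 65.9 CPM at 24 h (-1.23 ± 0.07, adjusted p = 5.23e-10). Dusp6, a phosphatase that switches ERK off, had 9.55, 10.8 and 11.6 CPM at 48 h, against 21.4, 20.95 and 18.3 CPM at 24 h (-0.92 ± 0.094, adjusted p = 1.24e-06). The separation was complete in both genes, as in most called genes. Phlda1, a pleckstrin-domain gene induced by growth factors, changed by -1.60 ± 0.072 (adjusted p = 3.57e-09), Errfi1, an inhibitor of the EGF receptor, by -0.63 ± 0.071, and Dusp14 by -0.39 ± 0.05. Plk2, an early kinase gene that p53 also induces, had 357, 414 and 358 CPM at 48 h, against 829, 810.3 and 818 CPM at 24 h (-1.12 ± 0.05, adjusted p = 3.41e-11). Replicate 2 was the highest 48 h library in 15 of the 27 immediate-early genes, of which 23 fell without it.

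**Figure D3:**
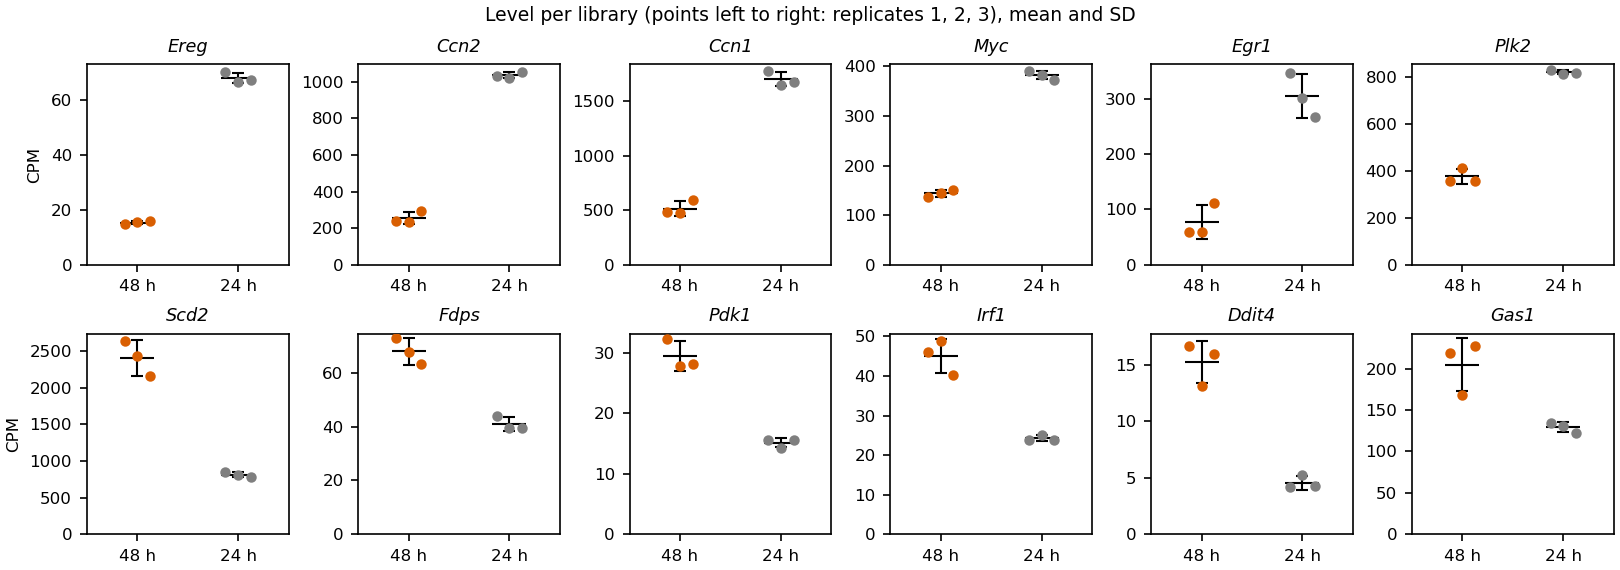
Level in CPM (vertical axes, from 0) in each library at 48 h (left, orange) and 24 h (right, grey) for 12 genes, points left to right for replicates 1, 2 and 3, with the mean and SD as bars (n = 3 each). In all 12 genes the 48 h libraries lie wholly below (top row) or wholly above (bottom row) the 24 h libraries, as for Ereg at 15.0 to 15.9 CPM at 48 h, against 66.8 to 70.4 CPM at 24 h. Most called genes are likewise without overlap (1423 of 1513 higher and 1678 of 1723 lower).

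Several secreted growth factors fell too. Of 25 ligand genes, 12 fell and 1 rose, at a median of -0.23, and of 19 receptor genes, 3 fell and 3 rose, at a median of 0.097. The ligand median was -0.41 without 48 h replicate 3, and the receptor median was 0.062 without 24 h replicate 1, 0.011 without 48 h replicate 3 and 0.051 with limma-voom. Ereg (epiregulin, chromosome 5, 91074622 to 91093646), a ligand of the EGF receptor, had 15.0, 15.6 and 15.9 CPM at 48 h, against 70.4, 66.8 and 67.4 CPM at 24 h, a log2 fold change of -2.14 ± 0.071 (adjusted p = 1.62e-13). Its 48 h libraries lay within 1 CPM of each other. Hbegf, another ligand of that receptor, had 46.7, 66.0 and 49.3 CPM at 48 h, against 154, 146 and 141 CPM at 24 h (-1.44 ± 0.11, adjusted p = 1.85e-05). Both were far below their 24 h range in every 48 h library. Bdnf, a neurotrophin gene, changed by -0.89 ± 0.063, Csf1, the macrophage growth factor, by -0.87 ± 0.055, Inhba, a subunit of activin, by -0.78 ± 0.087, and Nrg1, a ligand of ERBB receptors, by -0.55 ± 0.068. Lif, a cytokine of the IL-6 family, had 15.2, 23.1 and 22.7 CPM at 48 h, against 52.3, 50.4 and 53.9 CPM at 24 h (-1.35 ± 0.13, adjusted p = 4.62e-05). Among receptors, Ghr, the growth hormone receptor, fell (-0.60 ± 0.056, adjusted p = 3.84e-07) and Axl, a receptor kinase for Gas6, fell (-0.48 ± 0.059, adjusted p = 3.82e-05). Pdgfrb, the PDGF receptor of mesenchymal cells, had 107, 84.5 and 125 CPM at 48 h, against 56.7, 50.6 and 51.7 CPM at 24 h (0.99 ± 0.16, adjusted p = 0.00315), so that all 48 h libraries were above all 24 h libraries, with replicate 2 the lowest of them. Il6st, the shared receptor chain of Lif and IL-6, rose by 0.22 ± 0.047. When 48 h replicate 2 was left out, 4 ligand and 5 receptor genes rose. Of 5 genes for IGF-binding proteins, 3 fell and 1 rose. Igfbp7 changed by -0.73 ± 0.10 and Igfbp4 by -0.26 ± 0.051, and Igfbp5 had 2.28, 0.735 and 2.01 CPM at 48 h, against 0.361, 0.470 and 0.514 CPM at 24 h (1.89 ± 0.40, adjusted p = 0.0021).

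Targets of YAP and TEAD and SRF-dependent contractile genes were lower at 48 h. Of 20 YAP/TEAD targets, 11 fell and 2 rose, at a median of -0.18, and without 24 h replicate 1 or 24 h replicate 3 the lower count was 7. The higher count was 1 without 24 h replicate 2, 24 h replicate 3 or 48 h replicate 2, and the median was -0.12 without 48 h replicate 1. Ccn2 (chromosome 10, 24595442 to 24598683), a secreted matricellular protein also known as CTGF, had 239, 236 and 292 CPM at 48 h, against 1033, 1023 and 1054 CPM at 24 h (-2.02 ± 0.086, adjusted p = 1.58e-07). Ccn1 (chromosome 3, 145646976 to 145649981), its relative CYR61, had 481, 475 and 593 CPM at 48 h, against 1773, 1653 and 1679 CPM at 24 h (-1.72 ± 0.088, adjusted p = 9.51e-07). In both, the highest 48 h library, replicate 3, was still far below the lowest 24 h library. The F3 gene for tissue factor, which starts blood clotting, had 31.1, 33.2 and 35.8 CPM at 48 h, against 96.2, 92.8 and 90.8 CPM at 24 h (-1.48 ± 0.057, adjusted p = 1.38e-12), and Amotl2, an angiomotin that binds YAP, had 219, 218 and 222 CPM at 48 h, against 359, 342 and 362 CPM at 24 h (-0.69 ± 0.042, adjusted p = 1.52e-09). Ptpn14, a phosphatase that restrains YAP, had 137, 154 and 162 CPM at 48 h, against 128, 125 and 126 CPM at 24 h, a rise of 0.26 ± 0.054. Of the other 3 CCN genes, 1 passed. Ccn4 (WISP1), a Wnt-responsive member, had 122, 130.1 and 123 CPM at 48 h, against 82.5, 78.0 and 81.0 CPM at 24 h and rose (0.63 ± 0.049, adjusted p = 3.5e-08), Ccn3 was at 34.4, 29.1 and 41.0 CPM at 48 h, against 32.6, 32.4 and 31.6 CPM at 24 h, and Ccn5 was at 49.1, 23.8 and 48.7 CPM at 48 h, against 24.4, 20.95 and 19.7 CPM at 24 h. All 3 of these genes were called higher without 48 h replicate 2.

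Of 25 SRF-dependent contractile genes, 12 fell and 1 rose, at a median of -0.18, and 3 rose without 48 h replicate 3. Actb, the cytoplasmic beta actin, had 3563, 3863 and 3954 CPM at 48 h, against 5015, 5105 and 4851 CPM at 24 h (-0.40 ± 0.039, adjusted p = 8.33e-07), the largest fall in mean CPM among the genes called, although reads shared with other actins could be split between them by the counting. Fhl2, a LIM-domain cofactor of the actin skeleton, had 49.0, 57.2 and 51.8 CPM at 48 h, against 82.8, 82.8 and 78.2 CPM at 24 h (-0.62 ± 0.057, adjusted p = 3.31e-07). Tpm4 (-0.30 ± 0.034) and Tpm2 (-0.25 ± 0.041), both tropomyosins of actin filaments, and Tagln2 (-0.26 ± 0.036), a calponin-like actin binder, fell by smaller amounts. Acta1, the skeletal muscle actin, fell at low levels, with 0.761, 0.918 and 1.17 CPM at 48 h, against 3.25, 3.36 and 3.67 CPM at 24 h. Acta2, the smooth muscle actin that marks myofibroblasts, had 13.5, 13.2 and 24.5 CPM at 48 h, against 20.2, 18.8 and 18.6 CPM at 24 h and did not pass (-0.15 ± 0.22, adjusted p = 0.667). Without 48 h replicate 3 it was called lower, at -0.52, and without 48 h replicate 2 its log2 fold change was 0.015.

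Promoters, taken as the 250 bases before the annotated start, were available from RefSeq (GRCm38.p6) for 9609 of the tested genes, including 15 of the YAP/TEAD targets and 22 of the SRF-dependent genes. The letters CATTCC on either strand, the core of the TEAD site, were found in 7 of the 15 YAP/TEAD promoters (46.7%) and in 9 of the 22 SRF-dependent promoters (40.9%), against 10.5% of all 9609. The CArG box of SRF was found in 7 of the 22 SRF-dependent promoters (31.8%), against 1.2% of all, and in 2 of 21 immediate-early promoters (Srf and Zfp36). A match is a description of these letters, and binding was not measured. Promoters of a pair of called members of each list are shown, 5′ to 3′ on the gene's strand, with the motif in capitals: Ccn1 (chr3:145649986-145650235, minus strand) and Amotl2 (chr9:102717554-102717803, plus strand) for CATTCC, and Fhl2 (chr1:43196762-43197011, minus strand) and Cnn2 (chr10:79988350-79988599, plus strand) for the CArG box.

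Ccn1: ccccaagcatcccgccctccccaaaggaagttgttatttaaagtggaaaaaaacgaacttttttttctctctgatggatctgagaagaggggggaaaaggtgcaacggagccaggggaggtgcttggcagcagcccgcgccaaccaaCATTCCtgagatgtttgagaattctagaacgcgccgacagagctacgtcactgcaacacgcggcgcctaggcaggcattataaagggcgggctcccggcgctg
Amotl2: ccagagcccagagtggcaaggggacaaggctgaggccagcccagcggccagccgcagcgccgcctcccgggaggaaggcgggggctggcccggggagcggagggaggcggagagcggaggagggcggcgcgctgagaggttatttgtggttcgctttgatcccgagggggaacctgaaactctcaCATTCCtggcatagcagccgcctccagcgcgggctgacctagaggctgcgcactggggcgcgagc
Fhl2: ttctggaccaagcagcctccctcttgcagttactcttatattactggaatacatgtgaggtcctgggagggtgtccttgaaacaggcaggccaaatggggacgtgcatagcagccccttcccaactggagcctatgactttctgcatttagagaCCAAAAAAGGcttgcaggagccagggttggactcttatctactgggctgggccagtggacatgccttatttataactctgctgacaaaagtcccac
Cnn2: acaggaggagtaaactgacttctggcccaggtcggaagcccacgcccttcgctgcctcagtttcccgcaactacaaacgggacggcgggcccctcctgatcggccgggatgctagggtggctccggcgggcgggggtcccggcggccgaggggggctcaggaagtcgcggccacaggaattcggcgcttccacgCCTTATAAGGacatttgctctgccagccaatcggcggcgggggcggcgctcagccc

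Cnn2, a calponin of non-muscle cells that was chosen for its motif after its values had been seen, had 597, 613 and 569 CPM at 48 h, against 682, 689 and 647 CPM at 24 h (-0.18 ± 0.042, adjusted p = 0.00368).

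Inflammatory mediators were also lower. Of 21 tested NF-kB and inflammatory genes (28 listed), 11 fell, at a median of -0.36. Ptgs2 (chromosome 1, 150100031 to 150108227), the inducible cyclooxygenase that makes prostaglandin precursors, had 111, 183 and 115 CPM at 48 h, against 495, 485 and 479 CPM at 24 h (-1.83 ± 0.19, adjusted p = 0.000386), with 48 h replicate 2 the highest 48 h library. Il1rl1, the receptor of interleukin 33, which fibroblasts secrete in a soluble form after serum, had 1517, 1534 and 1410.2 CPM at 48 h, against 2347, 2402 and 2311 CPM at 24 h (-0.66 ± 0.038, adjusted p = 4.92e-10). The NF-kB subunits Nfkb2 (-0.57 ± 0.047), Relb (-0.55 ± 0.073) and Rela (-0.28 ± 0.042), the inhibitor-like Nfkbiz (-0.80 ± 0.088) and the adhesion molecule Vcam1 (-0.46 ± 0.065) fell by less. Among 12 chemokine and receptor genes, 3 fell and 3 rose. Ppbp, a platelet-type CXC chemokine, had 4.91, 6.55 and 6.47 CPM at 48 h, against 22.5, 24.8 and 22.4 CPM at 24 h (-1.95 ± 0.11, adjusted p = 4.09e-10), and Ccl2, which attracts monocytes, had 8.03, 8.69 and 9.71 CPM at 48 h, against 20.8, 17.1 and 17.9 CPM at 24 h (-1.07 ± 0.11, adjusted p = 7.37e-07). When a single control library was left out, 0 to 2 members rose.

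Genes for making ribosomes fell together by small steps. Of 59 ribosome biogenesis genes, 46 fell, at a median of -0.24, and the range over all 59 was -0.54 to 0.20. Nop56 and Nop58, core proteins of the complex that methylates ribosomal RNA, had 224, 251 and 220.0 CPM at 48 h, against 314, 324 and 333 CPM at 24 h (-0.48 ± 0.047, adjusted p = 6.48e-07) and 414, 449.8 and 401 CPM at 48 h, against 526, 523 and 529 CPM at 24 h (-0.32 ± 0.047, adjusted p = 6.66e-05). Nolc1, a nucleolar scaffold, had 508, 615 and 505 CPM at 48 h, against 743, 760.1 and 765 CPM at 24 h (-0.48 ± 0.061, adjusted p = 7.06e-05), and Rrs1, Ppan and Rrp9, assembly factors of the subunits, changed by -0.44 ± 0.049, -0.54 ± 0.068 and -0.39 ± 0.056. The 48 h libraries were not alike here. Replicate 2 was the highest of the 3 in 58 of 59 genes, and the summed level was 14171 to 16811 CPM at 48 h, against 17665 to 17981 CPM at 24 h. Without replicate 2, 54 genes fell, at a median of -0.30. Ncl, which encodes nucleolin, had 2738, 3294.1 and 2714 CPM at 48 h, against 3412, 3535 and 3464 CPM at 24 h and passed narrowly (-0.25 ± 0.077, adjusted p = 0.0369). It did not pass when any 1 of the 24 h libraries or 48 h replicate 1 or 3 was left out, at log2 fold changes of -0.19 to -0.25.

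Most ribosomal protein genes did not pass the test. Of 79 cytosolic ribosomal protein genes, 14 fell and 1 rose, at a median of -0.051 (-0.020 with library-size scaling), and the lower count was 6, 7 and 9 without 24 h replicate 3, 48 h replicate 3 and 24 h replicate 1. Rpl28 (29.2, 33.4 and 26.7 CPM at 48 h, against 40.7, 37.1 and 39.8 CPM at 24 h) and Rpl29 (108, 116 and 106 CPM at 48 h, against 131, 128 and 121 CPM at 24 h) were the members with the smallest adjusted p (0.00128 and 0.00377). Many of these genes have processed pseudogenes, so their counts are uncertain. Of the 7 mitochondrially encoded mRNAs tested, none passed in either direction by edgeR, by DESeq2 or at an unadjusted p under 0.05, at a median of 0.21 that was 0.082 without 48 h replicate 2 (1 rose without 48 h replicate 3), and 48 h replicate 2 was the highest 48 h library in all 7. mt-Nd1, a subunit of respiratory complex I, was at 2842, 3483 and 2232 CPM at 48 h, against 2069.6, 1987 and 2433 CPM at 24 h. The mitochondrial ribosomal RNAs mt-Rnr1 (522, 741 and 363 CPM at 48 h, against 229.6, 246 and 281 CPM at 24 h) and mt-Rnr2 (1008, 1518 and 782 CPM at 48 h, against 587, 583 and 704 CPM at 24 h) were called higher (1.10 ± 0.24, adjusted p = 0.0138 and 0.82 ± 0.23, adjusted p = 0.0398), also with replicate 2 the highest. The first was not called without 24 h replicate 1 or 2 (1.05 and 1.09), and the second was not called without any 1 of the 24 h libraries or 48 h replicate 1 (0.78 to 0.93) and was 0.52 without 48 h replicate 2. Libraries were made from polyadenylated RNA, and how far these counts follow the amount of mitochondrial ribosomal RNA was not tested.

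Most cell cycle genes did not pass the test. Of 50 genes of the G1 cyclins and S phase, 12 fell and 1 rose, at a median of -0.043, and 6 and 7 fell without 24 h replicate 1 and 24 h replicate 3. That median was -0.0062, -0.028 and -0.025 without 24 h replicate 1, 24 h replicate 3 and 48 h replicate 2, and -0.010 with library-size scaling. Prim1, the DNA primase subunit, had 137, 130.3 and 127 CPM at 48 h, against 167, 172 and 175 CPM at 24 h (-0.39 ± 0.04, adjusted p = 1.66e-06). Rrm2 (-0.23 ± 0.038) and Tk1 (-0.26 ± 0.043), which supply nucleotides, the licensing factor Cdt1 (-0.21 ± 0.039) and cyclin E2, Ccne2 (-0.18 ± 0.045), fell by smaller amounts. Ccnd1, the cyclin that growth factors induce, was at 247, 292 and 263 CPM at 48 h, against 267, 269 and 250.3 CPM at 24 h (0.029 ± 0.051, adjusted p = 0.726). Of 51 G2 and mitosis genes, 9 rose and 6 fell, at a median of 0.054 (0.086 with library-size scaling). Bub1, a spindle checkpoint kinase, had 165, 166 and 164 CPM at 48 h, against 136, 143 and 139 CPM at 24 h (0.25 ± 0.038, adjusted p = 0.000102), Ccnb2 rose by 0.24 ± 0.047, and Ube2c, the ubiquitin-conjugating enzyme of the anaphase complex, fell (-0.28 ± 0.048). The higher count was 15 without 48 h replicate 2, and the lower count was 1 or 2 without any 1 of the 24 h libraries or 48 h replicate 3. Mki67, the common proliferation marker, was at 235, 306 and 261 CPM at 48 h, against 222, 219.7 and 271 CPM at 24 h, and did not pass (0.17 ± 0.13, adjusted p = 0.408).

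Genes linked to growth arrest and to FOXO factors, which work when insulin and growth factor signals are low, mostly rose. Of 32 tested, 17 rose and 7 fell, at a median of 0.33. Ccng2, an atypical cyclin of resting cells, had 28.2, 20.9 and 26.4 CPM at 48 h, against 14.1, 14.2 and 14.4 CPM at 24 h (0.82 ± 0.10, adjusted p = 9.15e-06). Cdkn1b, the inhibitor p27 of cyclin-dependent kinases, had 92.9, 82.0 and 89.3 CPM at 48 h, against 68.9, 64.1 and 63.2 CPM at 24 h (0.43 ± 0.053, adjusted p = 1.09e-05), and Rbl2, the retinoblastoma relative p130, had 58.6, 56.5 and 59.8 CPM at 48 h, against 42.8, 44.7 and 43.1 CPM at 24 h (0.42 ± 0.053, adjusted p = 1.26e-05). Bnip3, a mitophagy receptor, rose by 0.66 ± 0.10. In all 4 genes the groups did not overlap, as in most called genes. Gas1, a membrane protein named for growth arrest, had 219, 168 and 227 CPM at 48 h, against 135, 131 and 123 CPM at 24 h (0.66 ± 0.12, adjusted p = 0.0043). Among those that fell, Cited2, a transcription cofactor, had 259, 284 and 281 CPM at 48 h, against 512, 491 and 496 CPM at 24 h (-0.86 ± 0.044, adjusted p = 1.21e-10) and Btg1, an antiproliferative gene, changed by -0.40 ± 0.045. Replicate 2 was the lowest 48 h library in 24 of the 32. Of 29 p53 targets, 8 fell and 4 rose, at a median of -0.075. Besides Plk2, the nuclease Aen (-0.39 ± 0.061), the kinase Plk3 (-0.54 ± 0.09) and the stress sensor Gadd45a (-0.45 ± 0.085) fell, and Sesn1 (0.38 ± 0.077), which encodes a sestrin, and Perp (0.31 ± 0.077), a protein of cell junctions, rose. Without 24 h replicate 3, 5 targets fell. The median of the p53 targets was -0.041 without 48 h replicate 2, -0.12 without 48 h replicate 3, -0.043 with library-size scaling and -0.040 with limma-voom.

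**Figure D4:**
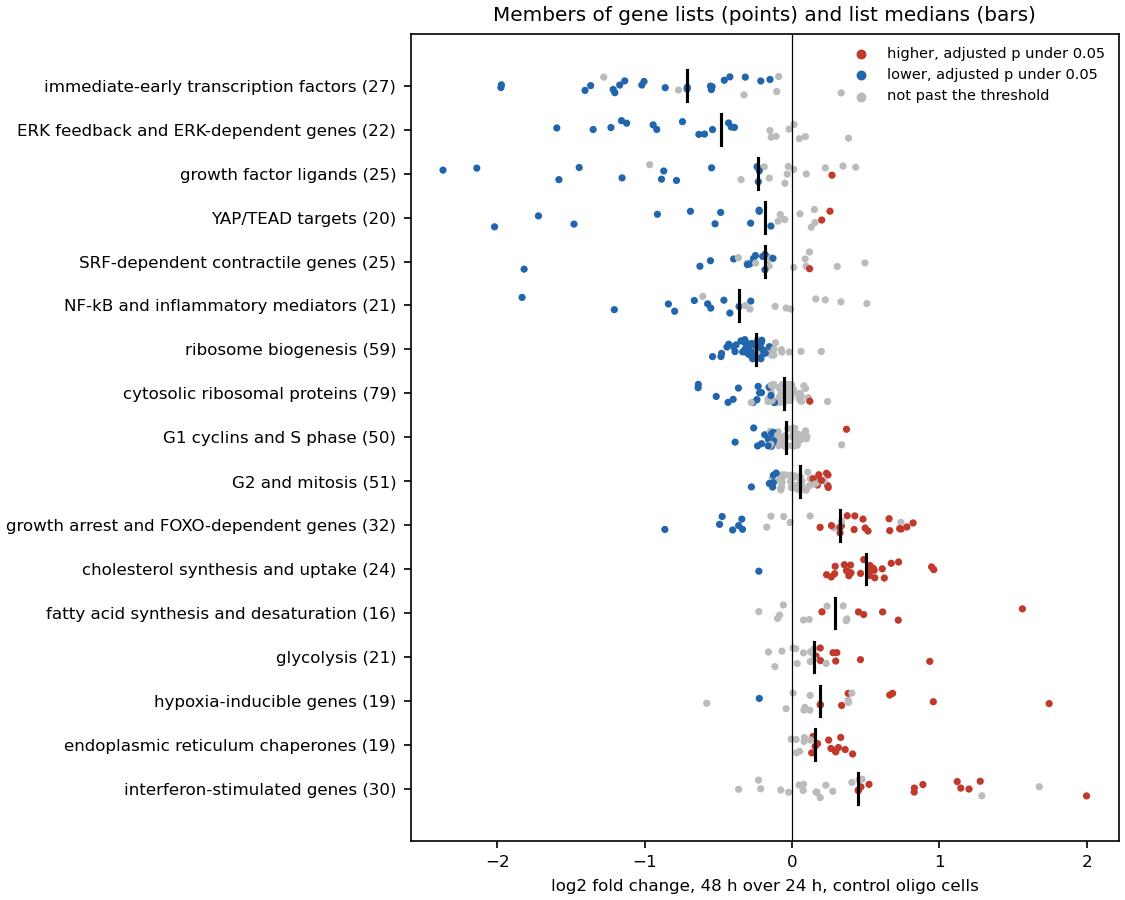
Log2 fold change, 48 h over 24 h (horizontal axis), of each tested member of 17 gene lists (points, with the number tested in brackets), red for higher, blue for lower and grey for not past an adjusted p of 0.05, with list medians as black bars. Immediate-early and ERK feedback members lie furthest left (medians -0.71 and -0.48), cholesterol and interferon-stimulated members furthest right (medians 0.50 and 0.45), and cell cycle members close to 0.

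Cholesterol synthesis genes rose almost throughout, and some genes of fatty acid synthesis rose. Of 24 genes of cholesterol synthesis and uptake, 23 rose and 1 fell, at a median of 0.50, and 20 to 22 rose when a single library was left out. Their summed level was 3631 to 4471 CPM at 48 h, against 2853 to 2972 CPM at 24 h. Fdps, which makes farnesyl diphosphate, had 73.0, 67.8 and 63.3 CPM at 48 h, against 44.0, 39.7 and 39.5 CPM at 24 h (0.72 ± 0.063, adjusted p = 1.82e-07), and Fdft1, which makes squalene from it, had 167, 160.1 and 142 CPM at 48 h, against 109, 106 and 102 CPM at 24 h (0.56 ± 0.063, adjusted p = 9.06e-06). Further along the path, Nsdhl had 116, 115 and 96.7 CPM at 48 h, against 72.1, 73.5 and 67.8 CPM at 24 h (0.61 ± 0.066, adjusted p = 3.35e-06). Acat2, which makes acetoacetyl-CoA, and Stard4, a sterol carrier, rose by 0.53 ± 0.062 and 0.67 ± 0.062. Among these 5 genes no 48 h library fell into the 24 h range, and replicate 3 was the lowest 48 h library in each.

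Of 16 genes of fatty acid synthesis and desaturation, 6 rose, at a median of 0.29 that was 0.16 without 48 h replicate 2. Scd2 (chromosome 19, 44293674 to 44306864), a stearoyl-CoA desaturase that makes monounsaturated fatty acids, had 2633, 2430.2 and 2153 CPM at 48 h, against 847, 807 and 786 CPM at 24 h, the largest rise in mean CPM, at 1.56 ± 0.088 (adjusted p = 1.85e-06). Its paralog Scd1 had 395, 394 and 347 CPM at 48 h, against 234, 228 and 226 CPM at 24 h (0.72 ± 0.052, adjusted p = 1.83e-08), and reads of shared sequence could be split between the paralogs. The elongase Elovl6 (0.62 ± 0.062) and the desaturases Fads1 (0.45 ± 0.049) and Fads2 (0.49 ± 0.062) rose as well, and Acly, which supplies acetyl-CoA, rose by 0.20 ± 0.049, or by 0.13 without 48 h replicate 2. Lpin1, a phosphatase of triglyceride synthesis that SREBP also induces, had 13.2, 13.9 and 10.3 CPM at 48 h, against 5.23, 4.77 and 4.48 CPM at 24 h (1.36 ± 0.13, adjusted p = 8.33e-07).

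In the promoters of 17 cholesterol genes that RefSeq held, the CCAAT box bound by NF-Y, a partner of SREBP, occurred in 15 (88.2%), against 37.0% of all 9609 promoters. A form of the sterol regulatory element, the site of SREBP itself, was in 0 of the 17 and in 0.156% of all, which says only that these letters are not in this window. Both strands were searched. A pair of members is shown 5′ to 3′ on the gene's strand, with CCAAT or its reverse complement ATTGG in capitals: Hmgcs1, a synthase early in the pathway, which was chosen for its motifs after its values had been seen (chr13:119690101-119690350, plus strand), and Nsdhl (chrX:72918271-72918520, plus strand).

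Hmgcs1: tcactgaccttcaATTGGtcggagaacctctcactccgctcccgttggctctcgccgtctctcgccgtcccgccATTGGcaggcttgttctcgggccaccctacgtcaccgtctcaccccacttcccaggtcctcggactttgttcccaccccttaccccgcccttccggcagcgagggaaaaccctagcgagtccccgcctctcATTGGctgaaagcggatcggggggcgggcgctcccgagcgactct
Nsdhl: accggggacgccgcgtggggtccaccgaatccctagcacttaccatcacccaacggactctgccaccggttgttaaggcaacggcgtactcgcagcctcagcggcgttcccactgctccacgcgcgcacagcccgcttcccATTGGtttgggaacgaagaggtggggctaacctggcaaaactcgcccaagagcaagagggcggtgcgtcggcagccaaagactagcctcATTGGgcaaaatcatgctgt

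Hmgcs1 had 366, 385 and 282 CPM at 48 h, against 183, 179 and 173 CPM at 24 h (0.95 ± 0.11, adjusted p = 0.000335).

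Glucose use and low-oxygen genes rose in part. Of 21 glycolysis genes, 8 rose, at a median of 0.15, with Pfkl, a phosphofructokinase subunit, at 235, 228 and 212 CPM at 48 h, against 162, 159 and 169 CPM at 24 h (0.46 ± 0.048, adjusted p = 1.61e-06). Slc16a3, the lactate exporter MCT4, had 15.5, 12.5 and 11.2 CPM at 48 h, against 6.19, 6.78 and 7.48 CPM at 24 h (0.94 ± 0.14, adjusted p = 8.88e-05). Aldoa, Ldha, Tpi1 and Gpi1, enzymes of the pathway and of lactate production, rose by 0.28 ± 0.038, 0.30 ± 0.046, 0.30 ± 0.045 and 0.19 ± 0.037. Of 19 hypoxia-inducible genes, 8 rose and 1 fell, at a median of 0.19 that was 0.30 to 0.31 without 24 h replicate 1, 48 h replicate 2 or 48 h replicate 3. Ddit4 (chromosome 10, 59949669 to 59951834), also called REDD1, an inhibitor of mTORC1 that low oxygen, glucocorticoids and energy stress induce, had 16.7, 13.2 and 15.96 CPM at 48 h, against 4.15, 5.24 and 4.26 CPM at 24 h (1.75 ± 0.14, adjusted p = 4.14e-08). Pdk1, which keeps pyruvate out of mitochondria, had 32.3, 27.8 and 28.1 CPM at 48 h, against 15.5, 14.2 and 15.5 CPM at 24 h (0.96 ± 0.084, adjusted p = 1.88e-07). Bnip3l rose by 0.38 ± 0.055 and Hif1a, the oxygen-regulated transcription factor, by 0.19 ± 0.047. Vegfa, the endothelial growth factor and a standard hypoxia target, fell (-0.22 ± 0.06), a call that was lost without 24 h replicate 1 or 48 h replicate 3 (-0.17 and -0.16).

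Chaperones of the endoplasmic reticulum, where secreted proteins fold, rose slightly. Of 19 tested, 12 rose, at a median of 0.16, and 7 rose without 48 h replicate 1, against 15 without 48 h replicate 2, which was the lowest 48 h library in 16 of 19. Hspa5, the main chaperone BiP, had 1389, 1113 and 1322 CPM at 48 h, against 1024, 1019.9 and 995 CPM at 24 h (0.33 ± 0.06, adjusted p = 0.00116), and Hsp90b1, its partner GRP94, had 1430.0, 1245 and 1323 CPM at 48 h, against 1075, 1093 and 1097 CPM at 24 h (0.29 ± 0.044, adjusted p = 9.89e-05). Pdia6 and Sdf2l1, also of that compartment, and Sel1l, which removes misfolded proteins, rose by 0.30 ± 0.046, 0.41 ± 0.071 and 0.32 ± 0.048. Calr, the lectin chaperone calreticulin, rose by 0.17 ± 0.045, a call lost without 48 h replicate 1 (0.11).

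Stress lists showed no common direction. Of 37 genes of amino acid synthesis and the integrated stress response, 10 rose and 4 fell, at a median of 0.082 that was 0.013 without 48 h replicate 2 and 0.032 with limma-voom, and 6 rose without 24 h replicate 3. Ppp1r15a (GADD34), a stress-induced phosphatase subunit that restores translation, had 32.6, 33.4 and 31.2 CPM at 48 h, against 72.2, 70.3 and 69.0 CPM at 24 h (-1.12 ± 0.061, adjusted p = 2.89e-10), whereas Nupr1, a stress-induced chromatin protein, had 61.6, 51.5 and 52.7 CPM at 48 h, against 30.4, 30.1 and 25.5 CPM at 24 h (0.94 ± 0.075, adjusted p = 9.14e-08). Of 19 cytosolic heat shock genes, 3 rose and 3 fell, with Cryab, a small heat shock protein, at 0.34 ± 0.054. Without 24 h replicate 3, 1 of them rose. Of 24 NRF2 targets, 4 rose and 2 fell, with Hmox1 (heme oxygenase) at -0.37 ± 0.04 and the thioredoxin reductase Txnrd1 at -0.33 ± 0.046. Without 24 h replicate 3, 2 rose, and without 48 h replicate 2, 4 fell. Of 38 lysosome and autophagy genes, 8 rose and 7 fell, with Ulk1, the kinase that starts autophagy, at 0.37 ± 0.053 and Sqstm1, the cargo receptor p62, at 0.36 ± 0.059. Without 24 h replicates 1 and 2 the lower counts were 4 and 3.

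Matrix genes differed between the 48 h libraries. Of 20 collagen genes, 2 rose and 2 fell, at a median of -0.069. The median was above 0 without 48 h replicate 2 (0.059), and was -0.026, -0.045 and -0.19 without 24 h replicate 3, 48 h replicate 1 and 48 h replicate 3, -0.035 with library-size scaling and -0.11 with the replicate block (-0.14 in the control libraries alone). Col11a1, a minor fibrillar collagen of cartilage, had 15.1, 7.35 and 13.4 CPM at 48 h, against 4.15, 2.75 and 4.18 CPM at 24 h (1.68 ± 0.26, adjusted p = 0.000873). Col18a1, the basement membrane collagen that yields endostatin, had 15.0, 19.1 and 19.0 CPM at 48 h, against 32.7, 33.7 and 34.3 CPM at 24 h (-0.91 ± 0.086, adjusted p = 4.5e-07). The main fibrillar collagen genes Col1a1 (1745, 1663 and 2202 CPM at 48 h, against 1594, 1492 and 1761 CPM at 24 h) and Col1a2 (1350.2, 1134 and 1684 CPM at 48 h, against 1006, 952 and 1095 CPM at 24 h) did not pass, at 0.21 ± 0.14, adjusted p = 0.327, and 0.45 ± 0.16, adjusted p = 0.0815. Col3a1 was at 12.0, 5.75 and 19.0 CPM at 48 h, against 4.99, 5.91 and 5.06 CPM at 24 h (1.22 ± 0.47, adjusted p = 0.104). Replicate 2 was the lowest 48 h library in 13 of 20, and without it 5 collagens rose and 4 fell, Col1a2 (0.58) and Col3a1 (1.57) among the risers. With 48 h replicate 3 left out, 6 fell. Without any 1 of the 24 h libraries or 48 h replicate 1, 1 rose.

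The 6 small leucine-rich proteoglycans tested, which bind collagen fibrils, were all lowest at 48 h in replicate 2. Omd (osteomodulin) had 31.0, 15.8 and 35.9 CPM at 48 h, against 12.3, 14.6 and 10.9 CPM at 24 h and was called higher (1.13 ± 0.29, adjusted p = 0.0245), but not without 24 h replicate 1 or 3 or 48 h replicate 1 or 3 (0.89 to 1.12). Ogn (osteoglycin) was at 150.5, 85.2 and 168 CPM at 48 h, against 84.6, 73.0 and 67.9 CPM at 24 h, and did not pass by edgeR with all libraries. It passed without 48 h replicate 2 (1.09), by DESeq2 and by limma-voom (0.935). The limma-voom fit gave 48 h replicate 2 a weight of only 0.268, so it is not separate from leaving that library out. Of the 6, 2 rose and 1 fell, at a median of 0.72, whereas 5 rose and 0 fell without replicate 2 (median 1.10), the median was 0.010 without 48 h replicate 3, and 0 rose without 24 h replicate 1 or 3 or 48 h replicate 1 or 3. Of 22 collagen-modifying enzymes, 5 rose and 5 fell. The cross-linking enzyme Lox had 874, 826 and 810.4 CPM at 48 h, against 754, 724 and 722 CPM at 24 h (0.19 ± 0.042, adjusted p = 0.00286), and the lysyl hydroxylase Plod3 had 169, 144 and 171 CPM at 48 h, against 219, 211 and 217 CPM at 24 h (-0.42 ± 0.057, adjusted p = 5.49e-05). The higher count was 2 or 3 without any 1 of the 24 h libraries or 48 h replicate 3. Of 33 other matrix glycoproteins, 2 rose and 4 fell. Fbln2, a fibulin of elastic fibres, had 435, 473 and 438 CPM at 48 h, against 687, 664 and 739 CPM at 24 h (-0.63 ± 0.046, adjusted p = 1.73e-08), and Fbn2, a fibrillin of microfibrils, had 7.61, 6.61 and 7.81 CPM at 48 h, against 3.19, 3.16 and 4.40 CPM at 24 h (1.05 ± 0.19, adjusted p = 0.000674). Without 48 h replicate 3, 8 fell. The higher count was 4 without 24 h replicate 3 or 48 h replicate 2 and 1 without 48 h replicate 1.

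Of 24 matrix proteases and inhibitors, 9 fell and 4 rose. Their log2 fold changes ran from -3.39 to 4.48, the largest being a rise, at a median of -0.0088. Over the alternatives that median lay on both sides of 0, between -0.028 with limma-voom and 0.040 without 48 h replicate 3, with 0.021 and -0.0044 without 24 h replicates 1 and 2. Timp1, an inhibitor of metalloproteases, had 143, 149 and 136 CPM at 48 h, against 209, 206 and 207 CPM at 24 h (-0.54 ± 0.042, adjusted p = 3.6e-08). The stromelysin Mmp3 and the collagenase Mmp13 were low, at 0.485, 0.122 and 0.223 CPM at 48 h, against 2.95, 2.75 and 2.93 CPM at 24 h for Mmp3 (-3.39 ± 0.32, adjusted p = 5.54e-07) and 0.0692, 0.184 and 0.279 CPM at 48 h, against 1.80, 1.88 and 1.47 CPM at 24 h for Mmp13 (-3.17 ± 0.43, adjusted p = 3.05e-05). Of 29 genes of the TGF-beta pathway, 11 fell and 6 rose, at a median of -0.088, and 3 rose without 24 h replicate 2. That median was -0.045, -0.049 and -0.20 without 24 h replicate 1, 48 h replicate 2 and 48 h replicate 3, and -0.056 with library-size scaling. The activin-binding antagonist Fst (follistatin) had 7.82, 6.92 and 8.43 CPM at 48 h, against 24.7, 27.1 and 25.0 CPM at 24 h (-1.73 ± 0.11, adjusted p = 1.91e-09). Smad7, the pathway's feedback inhibitor, had 31.0, 40.4 and 32.8 CPM at 48 h, against 71.4, 70.2 and 67.1 CPM at 24 h (-1.001 ± 0.08, adjusted p = 3.42e-07), and the target genes Pmepa1 and Id2 changed by -0.47 ± 0.044 and -0.50 ± 0.055.

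A part of the interferon-stimulated genes rose. Of 30 tested (41 listed), 12 rose, at a median of 0.45 that was 0.29 without 48 h replicate 3. Irf1, a transcription factor of the response, had 46.1, 48.9 and 40.2 CPM at 48 h, against 23.9, 25.1 and 23.9 CPM at 24 h (0.89 ± 0.076, adjusted p = 1.3e-07). Stat2, which carries the type I signal to the nucleus, had 34.0, 25.8 and 26.5 CPM at 48 h, against 13.7, 16.1 and 18.9 CPM at 24 h (0.83 ± 0.12, adjusted p = 0.000221), and Eif2ak2, the RNA sensor PKR, had 57.3, 65.7 and 63.9 CPM at 48 h, against 44.9, 45.1 and 45.3 CPM at 24 h (0.47 ± 0.059, adjusted p = 1.45e-05). The groups were apart in all 3 genes, as in most called genes. Ifit1, an effector that binds foreign RNA, had 6.78, 5.75 and 12.0 CPM at 48 h, against 4.15, 2.48 and 3.52 CPM at 24 h (1.28 ± 0.29, adjusted p = 0.00683). Replicate 2 was the lowest 48 h library in 22 of the 30, and without it 20 rose. Levels of this list were low, with a summed level of 495.6 to 566 CPM at 48 h, against 430.4 to 440.4 CPM at 24 h. Of 13 genes of MHC class I presentation, 1 rose and 1 fell (B2m, the light chain, -0.17 ± 0.036), and 5 rose without 48 h replicate 2. Of 7 complement-related genes, 2 rose and 1 fell. C3, the central complement protein, had 0.831, 0.857 and 2.12 CPM at 48 h, against 5.95, 4.50 and 4.84 CPM at 24 h (-1.96 ± 0.27, adjusted p = 4.58e-05), and the C1q-related gene C1qtnf6 had 21.5, 16.2 and 21.4 CPM at 48 h, against 11.7, 10.3 and 8.95 CPM at 24 h (0.92 ± 0.13, adjusted p = 6.86e-05).

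Other signalling pathways gave smaller counts. Of 11 Hedgehog pathway genes, 5 rose and 1 fell, at a median of 0.14 that was 0.26 without 24 h replicate 3. Ptch1, the Hedgehog receptor and itself a target of the pathway, had 45.8, 35.3 and 49.3 CPM at 48 h, against 24.8, 25.4 and 25.6 CPM at 24 h (0.78 ± 0.10, adjusted p = 5.28e-05), and Foxc2, a forkhead factor, had 26.5, 28.4 and 25.7 CPM at 48 h, against 48.4, 49.0 and 44.5 CPM at 24 h (-0.82 ± 0.074, adjusted p = 2.73e-07). Only 3 rose without 24 h replicate 2, 48 h replicate 1 or 48 h replicate 3. Gli1, a target and effector, had 5.26, 3.92 and 5.47 CPM at 48 h, against 3.07, 3.42 and 3.67 CPM at 24 h (0.53 ± 0.17, adjusted p = 0.0318), and its call was lost without 24 h replicate 1 or 2 or 48 h replicate 1 or 3 (0.44 to 0.55). Of 28 Wnt genes, 8 rose and 3 fell (1 without 24 h replicate 2), and 3 to 5 rose without any 1 of the 24 h libraries or 48 h replicate 1. Axin2, a direct Wnt target, had 4.57, 3.18 and 4.69 CPM at 48 h, against 0.782, 0.604 and 1.03 CPM at 24 h (2.37 ± 0.29, adjusted p = 1.05e-05), and the Wnt antagonist Dkk2 had 14.1, 17.7 and 15.5 CPM at 48 h, against 31.6, 33.5 and 33.2 CPM at 24 h (-1.05 ± 0.08, adjusted p = 2.89e-08). Of 14 Notch genes, 3 rose and 2 fell, with the target Hey2 at -1.01 ± 0.17, and 0 or 1 rose without any 1 of the 24 h libraries, 48 h replicate 1 or 48 h replicate 3.

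Of 17 clock genes, 5 rose and 4 fell, with the core activators Arntl (0.37 ± 0.082) and Clock (0.22 ± 0.05) higher and the repressor Nfil3 (-0.45 ± 0.084) lower. Without 24 h replicate 2, 3 rose, and without 24 h replicate 1, 24 h replicate 3 or 48 h replicate 3, 2 fell. Sgk1, a kinase that serum and glucocorticoids induce, had 282, 319 and 321 CPM at 48 h, against 814, 816 and 813 CPM at 24 h (-1.40 ± 0.047, adjusted p = 1.62e-13), the clearest of the 5 genes that fell among 10 glucocorticoid-responsive genes, of which 1 rose (Tsc22d3, 0.38 ± 0.10, lost without 48 h replicate 1 at 0.28). Of 7 aryl hydrocarbon receptor targets, 2 rose and 2 fell, with the cytochrome Cyp1b1 at 0.61 ± 0.093. Of 15 integrin genes, 2 rose and 2 fell. Itgb8, which activates latent TGF-beta, had 12.7, 8.88 and 12.7 CPM at 48 h, against 5.95, 5.51 and 4.26 CPM at 24 h (1.12 ± 0.16, adjusted p = 6e-05), and Itgb1, the common beta chain, had 1167, 1182 and 1193 CPM at 48 h, against 1389, 1417 and 1421 CPM at 24 h (-0.26 ± 0.033, adjusted p = 1.89e-05). Of 22 cadherins, connexins and other adhesion genes, 5 fell and 2 rose, with Cdh13 and the connexin Gjb2 lower, at -0.50 ± 0.045 and -0.50 ± 0.048. Of 11 adipocyte genes, 2 fell and 1 rose, with the lipid droplet coat gene Plin2 at -0.63 ± 0.039. Both tested proliferin genes fell, and Prl2c2, a growth-associated prolactin relative, had 4.43, 9.43 and 10.2 CPM at 48 h, against 17.8, 22.2 and 17.1 CPM at 24 h (-1.22 ± 0.23, adjusted p = 0.0036), with near-identical copies that make its count uncertain. In the lists of this paragraph with at most 4 calls in a direction, leaving out 1 control library moved those counts by 1 or 2. The proliferins are an exception, as the calls of both genes held in every alternative that tested them.

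Several of the largest changes lay outside these lists. Ptpn22, a phosphatase best known from lymphocytes, had 2.77, 4.22 and 2.74 CPM at 48 h, against 10.9, 14.3 and 13.6 CPM at 24 h (-1.99 ± 0.16, adjusted p = 6.28e-08). Ccbe1, a matrix protein of lymphatic vessel growth, had 15.7, 25.8 and 13.8 CPM at 48 h, against 66.3, 60.5 and 67.0 CPM at 24 h (-1.81 ± 0.21, adjusted p = 0.000662). Edn1, the vasoconstrictor endothelin, had 19.9, 20.8 and 27.3 CPM at 48 h, against 75.1, 73.7 and 62.6 CPM at 24 h (-1.63 ± 0.13, adjusted p = 8.11e-06), and Ptger4, a prostaglandin E2 receptor, had 2.21, 1.78 and 2.51 CPM at 48 h, against 5.47, 5.98 and 6.46 CPM at 24 h (-1.45 ± 0.16, adjusted p = 3.3e-06). All 4 were lower in every 48 h library, which was a condition for naming them. Dynap and Ctsw changed by -1.67 ± 0.16 and -1.59 ± 0.19.

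Among the rises, Hid1, a gene of secretory granule sorting, had 67.9, 61.0 and 51.0 CPM at 48 h, against 23.03, 20.3 and 22.6 CPM at 24 h (1.44 ± 0.11, adjusted p = 4.38e-07). Cdo1, which degrades cysteine, had 46.9, 33.9 and 33.0 CPM at 48 h, against 15.9, 15.6 and 13.3 CPM at 24 h (1.33 ± 0.16, adjusted p = 0.000164), and Lsp1, an actin-binding protein of leukocytes, had 65.1, 59.1 and 51.7 CPM at 48 h, against 30.9, 29.9 and 27.4 CPM at 24 h (0.99 ± 0.081, adjusted p = 9.14e-08). In these genes every 48 h library was above the 24 h range, which was a condition for naming them. Ly6c1, a surface protein, had 19.5, 16.3 and 16.1 CPM at 48 h, against 6.07, 6.31 and 7.56 CPM at 24 h (1.38 ± 0.14, adjusted p = 1.09e-06), and Kank1, which links focal adhesions to microtubules, had 22.1, 15.7 and 19.9 CPM at 48 h, against 8.96, 9.80 and 10.1 CPM at 24 h (0.999 ± 0.12, adjusted p = 5.89e-06). Mrgprf (1.45 ± 0.20), Ak4 (1.14 ± 0.20), an adenylate kinase of mitochondria, Mylip (1.03 ± 0.16), a ligase that degrades the LDL receptor, Sned1 (1.01 ± 0.18) and Plekha6 (0.99 ± 0.16) completed the 20 largest rises among genes whose average log2 CPM was 2 or more and whose groups did not overlap, at 48 h levels between 5.57 and 15.9 CPM, against 2.75 to 6.19 CPM at 24 h.

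The same interval looked different for many genes in cells with AS1411. The difference of the time changes, control minus AS1411, passed for 1845 genes whose change was higher in control cells (14.1%) and for 1749 whose change was lower (13.4%), by the edgeR interaction test. With library-size scaling these counts were 1192 and 2305, and the median difference over all genes was -0.063, against 0.0049 with TMM scaling. Of the 3236 genes called in control cells, 1241 differed from AS1411 cells by that test. The control change is itself 1 term of this difference, so choosing genes by it raises the count. That count is thus no separate result beside the 14.1% and 13.4% of all genes. The time comparisons share no libraries. Among lists, 14 of 27 immediate-early genes, 11 of 22 ERK feedback genes, 14 of 21 NF-kB genes and 18 of 29 p53 targets had a lower change in control cells, against 13.4% of all genes. A higher change in control cells was found for 17 of 24 cholesterol genes, 12 of 21 glycolysis genes and 27 of 79 ribosomal protein genes, against 14.1% of all. With library-size scaling the same directions were called for 16, 11, 14 and 19 members of the first 4 lists and for 15, 11 and 13 of the last 3. Over the fits that left out 1 library, 13 to 21 cholesterol genes and 14 to 35 ribosomal protein genes were called. Median log2 fold changes over time were -0.71 in control cells and -0.14 in AS1411 cells for immediate-early genes, and 0.50 in control cells and 0.017 in AS1411 cells for cholesterol genes. For ribosome biogenesis genes they were -0.24 in control cells and -0.39 in AS1411 cells, and for interferon-stimulated genes 0.45 in control cells and 0.69 in AS1411 cells. By the interaction test, 19 of the 59 ribosome biogenesis genes had a higher and 3 a lower change in control cells. Of the 30 interferon-stimulated genes, 3 had a higher and 6 a lower change, against 14.1% and 13.4% of all genes.

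Plk2 fell in control cells (-1.12 ± 0.05) and changed by 0.35 ± 0.054 in AS1411 cells, where it was at 855 and 907 CPM at 48 h, against 716, 691 and 669 CPM at 24 h, a difference of -1.47 ± 0.074 (adjusted p = 2.08e-10). Ppp1r15a changed by -1.12 ± 0.061 in control cells and 1.08 ± 0.058 in AS1411 cells (difference -2.20 ± 0.084, adjusted p = 4.91e-12). Mdm2, the ubiquitin ligase that restrains p53, changed by -0.20 ± 0.052 in control cells and 1.51 ± 0.053 in AS1411 cells (difference -1.71 ± 0.074, adjusted p = 2.34e-11), although its call over time in control cells was lost without 24 h replicate 3 (-0.17). These 3 genes moved in opposite directions in control and AS1411 cells. Txnip, which binds thioredoxin and limits glucose uptake, was at 8.86, 6.31 and 6.92 CPM at 48 h, against 8.72, 9.00 and 10.1 CPM at 24 h in control cells, and at 80.2 and 73.9 CPM at 48 h, against 8.97, 8.25 and 8.47 CPM at 24 h in AS1411 cells (difference -3.50 ± 0.16, adjusted p = 2.7e-11). Its small fall in control cells (-0.34 ± 0.12, adjusted p = 0.0457) was lost without any 1 of the 24 h libraries or 48 h replicate 2 or 3 (-0.24 to -0.37). Resf1, a regulator of retroelements, was at 68.9, 74.7 and 74.4 CPM at 48 h, against 65.4, 72.3 and 77.8 CPM at 24 h in control cells, and rose in AS1411 cells (difference -1.79 ± 0.09, adjusted p = 2.01e-10).

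In the other direction, Gjb2 and Cdh13 fell less in control cells (-0.50 ± 0.048 and -0.50 ± 0.045) than in AS1411 cells (-1.97 ± 0.06 and -1.78 ± 0.057), at differences of 1.47 ± 0.076 (adjusted p = 2.01e-10) and 1.28 ± 0.072 (adjusted p = 5.59e-10). Mgat3, a glycosyltransferase that adds bisecting sugars, had 100.4, 94.5 and 93.3 CPM at 48 h, against 50.8, 53.1 and 46.5 CPM at 24 h in control cells and 32.4 and 32.1 CPM at 48 h, against 44.1, 43.1 and 45.4 CPM at 24 h in AS1411 cells (difference 1.39 ± 0.086, adjusted p = 1.87e-09). Ephb2, an ephrin receptor, rose in control cells (0.43 ± 0.046) and fell in AS1411 cells (-0.70 ± 0.055). Ereg fell in both, with log2 fold changes of -2.14 ± 0.071 in control cells and -0.76 ± 0.071 in AS1411 cells (difference -1.38 ± 0.10, adjusted p = 2.02e-08), and so did Ccn2 (-2.02 ± 0.086 in control cells and -0.98 ± 0.095 in AS1411 cells, difference -1.04 ± 0.12). Ddit4 rose by 1.75 ± 0.14 in control cells and 3.57 ± 0.13 in AS1411 cells (difference -1.82 ± 0.20, adjusted p = 3.72e-06). For Edn1 (-1.63 ± 0.13 in control cells and -1.65 ± 0.14 in AS1411 cells), Lpin1 (1.36 ± 0.13 in control cells and 1.34 ± 0.14 in AS1411 cells) and Ly6c1 (1.38 ± 0.14 in control cells and 1.23 ± 0.16 in AS1411 cells) the differences did not pass, at 0.02 ± 0.19, 0.018 ± 0.20 and 0.15 ± 0.21 (SE). The AS1411 libraries at 48 h number 2, which widens these errors.

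**Figure D5:**
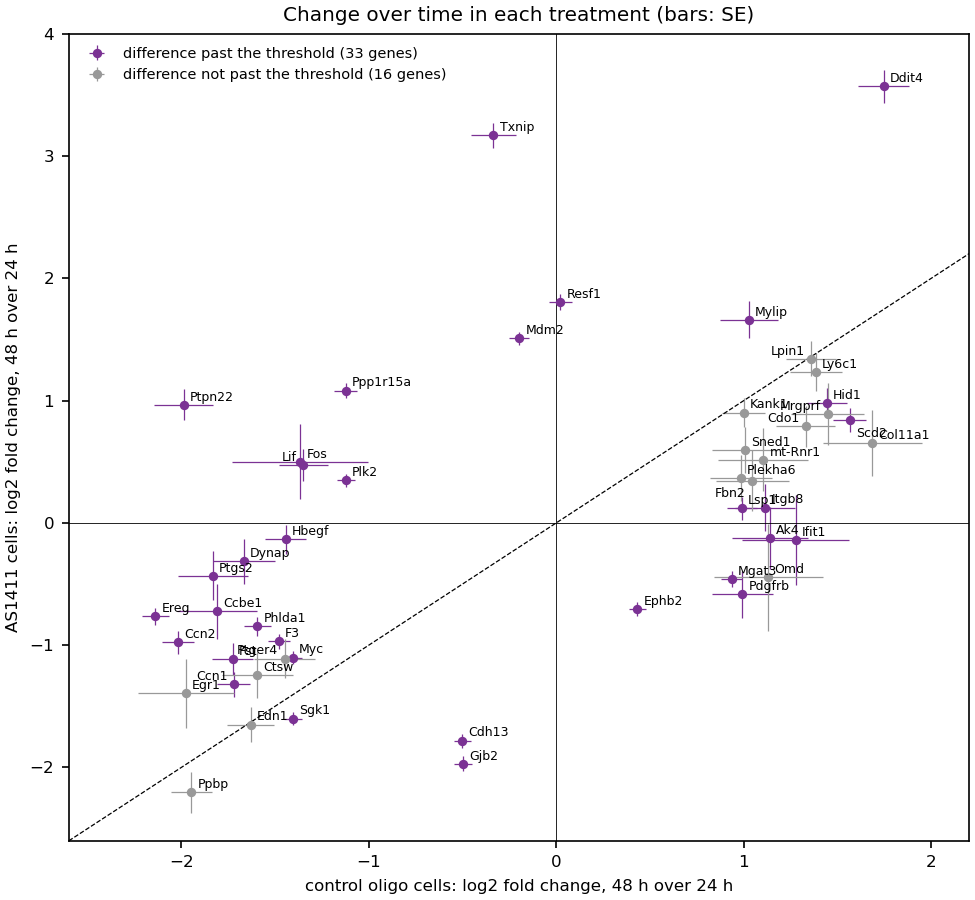
Log2 fold change, 48 h over 24 h, in control oligonucleotide cells (horizontal axis) and in AS1411 cells (vertical axis) for 49 genes, the 20 largest rises and falls in control cells and 9 of the 10 genes with the smallest adjusted p of the difference, with SE bars and a dashed line where both changes are equal. Purple genes (33) passed the test of the difference. Both rules of choice favour such genes, so this count is not comparable with the 14.1% and 13.4% of all genes. Predicted and clone-named genes were left out. Plk2 and Ppp1r15a lie in the upper left, with changes of -1.12 and -1.12 in control cells.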

How the data were processed

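RNA-seq of polyadenylated RNA was measured in 11 libraries of NIH-3T3 cells. The authors deposited raw counts per gene for each library, and per the submitters' processing notes bcl2fastq, cutadapt, STAR, HTSeq and DESeq2 were used with the genome build GRCm38. The sources used here do not give versions, the strand setting or how reads with several mapping places were counted. The authors' normalized values were not used. Totals were 14202465 to 18069867 counts in the control libraries.

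Samples were grouped by the treatment and time in the labels. From the 15022 genes in the table, filterByExpr kept 13040. edgeR 4.0.16 (R 4.3.3) was fitted to all 11 libraries with TMM scaling, one coefficient per group and 7 residual degrees of freedom, so the 4 groups share one estimate of the spread. The robust quasi-likelihood test was two-sided, with Benjamini-Hochberg adjustment over all tested genes and a threshold of 0.05. The contrasts were 48 h minus 24 h in control cells, and that change minus the same change in AS1411 cells. Fold changes are on the log2 scale with SE, and levels are CPM on TMM-scaled library sizes, which compare libraries but not genes. The test was also run on simulated counts, in which all groups shared the same spread per gene. That outcome is not reported here, so no support is drawn from it.

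Genes are named by these rules: the 20 highest and 20 lowest log2 fold changes among called genes whose average log2 CPM is 2 or more and whose groups do not overlap, the 5 largest CPM differences each way, up to 6 members of each list with the smallest adjusted p, the 5 interaction calls each way with the smallest adjusted p, and Plk2, Ier3, Ncl, Gas1, Ccnd1, Myc, Mki67, Col1a1 and Acta2. Some genes that these rules name are not reported here. Members and lists were chosen with earlier results of these data known, so their direction is not independent evidence. Lists were not tested. Gene positions are from GENCODE M21 and promoters from RefSeq, both on GRCm38. Motifs were searched on both strands of the promoters. Alternatives were other scalings, filters and thresholds, DESeq2 1.42.0, limma-voom with sample weights (limma 3.58.1), the control libraries alone, a replicate block and leaving out each library. In the limma-voom fit the control 48 h replicate 2 had the lowest weight of the 11 libraries, at 0.268.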

Additional observations from a re-analysis of the deposited data

Results flagged for a closer look

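The changes over time were compared between the treatments by the edgeR interaction test, as control minus AS1411. The difference passed for 1845 genes whose change was higher in control cells and 1749 whose change was lower. Among the genes named in the report, the stress-responsive and p53-dependent genes Txnip (-3.5), Ppp1r15a (-2.2), Mdm2 (-1.71) and Plk2 (-1.47) had lower changes in control cells, and so did Resf1 (-1.79) and Ddit4 (-1.82). Lower changes were also found for the signalling and secreted factor genes Ptpn22 (-2.95), Lif (-1.82), Ptgs2 (-1.4), Ereg (-1.38), Hbegf (-1.31), Ccn2 (-1.04), Ccbe1 (-1.09), Fst (-0.613), F3 (-0.511) and Ccn1 (-0.4). The remaining lower differences were for Fos (-1.86), Dynap (-1.35), Phlda1 (-0.75), Mylip (-0.634) and Myc (-0.303).

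Higher changes in control cells were found for the receptor and adhesion genes Pdgfrb (1.58), Gjb2 (1.47), Cdh13 (1.28), Ephb2 (1.13) and Itgb8 (0.99), and for Ifit1 (1.42), Mgat3 (1.39), Ak4 (1.26), Lsp1 (0.872), Scd2 (0.723), Hid1 (0.46) and Sgk1 (0.196). The calls for Fos and Fst were lost without AS1411 48 h replicate 1 (-1.64 and -0.41). Those for Ccbe1 (-0.90 to -1.21), Ccn1 (-0.29 to -0.42), Hid1 (0.33 to 0.51), Ifit1 (1.21 to 1.72), Mylip (-0.46 to -0.64) and Sgk1 (0.17 to 0.24) were each lost when any 1 of at least 6 libraries was left out, at the values given.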

How the results depend on the processing

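The counts of genes higher and lower at 48 h stayed within 1.5 times of 1513 and 1723 under the other scalings, filters and tools, with DESeq2 at 1309 and 1390 and limma-voom at 1872 and 2120, and no gene was called in the opposite direction under any of them. At an adjusted p under 0.01 they were 830 and 1033, with 63 genes at least 2-fold higher, and the interaction counts were 1040 higher and 966 lower in control cells. Requiring a fold change of at least 2 left 105 and 99 genes. Fitting the control libraries alone gave 1210 and 1190, and with replicate block added 1078 and 1068. Leaving out single libraries gave 1092 to 1931 higher and 1125 to 2030 lower genes, 80 to 154 and 85 to 120 at least 2-fold, and interaction counts of 1427 to 2238 higher and 1218 to 2039 lower. Library-size scaling gave 1192 genes higher in the interaction. Deviations of same-numbered control libraries from their group means correlated at 0.041, 0.024 and -0.0027, against -0.051 to 0.025 for libraries of unlike number. Such values cannot show whether same-numbered libraries were prepared together. The replicate block gave 1559 higher and 1781 lower genes. The reversed signs were all of genes that did not pass: Ccnd1 with limma-voom (-0.040) and, over the fits that left out 1 library, Acta2 (-0.517 to 0.0146), Ccnd1 (-0.0350 to 0.0821), Ccn3 (-0.0167 to 0.238) and Resf1 (-0.0325 to 0.0928), and the cause was not tested. For named genes over time, 4386 of the values under alternatives kept direction and side of the threshold, 259 no longer passed and 17 newly passed. Groups of 3, and 2 AS1411 libraries at 48 h, limit the precision of each value.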
